A study of Canis lupus familiaris with 45 samples.

Results

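Pyruvate dehydrogenase and the citric acid cycle were examined in subcutaneous fat of dogs through 9 listed genes: PDHA1, PDHB, CS, IDH3A, IDH3B, SUCLG1, FH, MDH1 and MDH2. The members were all probe sets that the platform annotation assigns to these symbols. Of the 9 genes, 8 had a probe set of their own, out of 15115 genes with a probe set of their own on the array. They had 20 probe sets, of which 18 passed a filter on low values (a log2 value above 4 on at least 4 arrays). MDH2 had no probe set of its own: both of its probe sets are shared with LOC482601, a pseudogene in RefSeq, and they are named here as MDH2 or LOC482601 and kept out of all counts.

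The pyruvate dehydrogenase complex turns pyruvate from glycolysis into acetyl-CoA inside mitochondria, and citrate synthase joins that acetyl-CoA to oxaloacetate. The enzymes of the cycle then oxidise citrate step by step back to oxaloacetate and pass electrons to the respiratory chain. In fat cells part of the citrate is exported to the cytosol, where it is the carbon source for fatty acid synthesis.

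The arrays came from 9 intact female beagles aged 4 years, all fed Purina Pro Plan Performance Formula and all biopsied after a night without food. The ad libitum group (dogs 2, 5, 6, 7 and 8; n = 5) could eat freely after week 0. The control group (dogs 1, 3, 4 and 9; n = 4) received the amount that kept its starting body weight. Each dog gave 1 array at weeks 0, 4, 8, 12 and 24, 45 arrays in all, and the deposited values are GCRMA expression values read as log2. Because the tissue was measured whole, fewer cells of a type and less RNA per cell cannot be told apart.

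Several arrays stood apart. The mean of 21 skeletal muscle genes was 7.50 to 14.33 on 10 arrays and 3.26 to 5.07 on the other 35. These 10 were 3 ad libitum and 2 control arrays at week 0, 1 of each at week 8, 1 ad libitum array at week 12, and the arrays of control dogs 3 and 4 at week 24. Of the fat cell markers, ADIPOQ (adiponectin) was never below 14.72 on the 45 arrays and FABP4 (the fat cell fatty acid binding protein) never below 15.35. Other fat cell markers fell lower on some arrays, with PLIN1 at 5.95 to 12.09 and LEP at 6.69 to 13.36. By probe sets that differ between dogs, 43 of 45 arrays matched the dog on their label, while the week-8 arrays labelled dog 5 (ad libitum) and dog 9 (control) each matched the other dog (r = 0.91 and 0.79). Week-24 arrays formed a batch of their own, so the feeding groups are compared within 1 batch at week 24, whereas a change from week 0 to week 24 is also a change of batch.

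At week 24, transcripts of the pyruvate dehydrogenase subunit PDHB and of the cytosolic malate dehydrogenase MDH1 were more abundant in ad libitum fat than in control fat. The difference was 2.58-fold for PDHB and 1.85-fold and 1.33-fold at the 2 probe sets of MDH1. These were 3 of the 18 member probe sets past the threshold (adjusted p under 0.05 over 22690 probe sets in limma), all 3 higher in ad libitum dogs. Over the array 5.46% of tested probe sets passed at week 24, and 3.76% passed as higher in ad libitum dogs. The other members did not pass, and of all 18 probe sets 17 had a positive difference. Their median difference was 0.59 on the log2 scale (range -0.27 to 1.47), beside a median of 0.01 over all tested probe sets, of which 50.7% were positive. Among the 4509 tested probe sets with a mean log2 value above 10 the median was 0.06.

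PDHB encodes the beta subunit of the enzyme's decarboxylase component. Its log2 values at week 24 were 13.37, 11.66, 13.05, 12.69 and 12.40 in ad libitum dogs 2, 5, 6, 7 and 8. In control dogs 1, 3, 4 and 9 they were 11.45, 10.63, 11.31 and 11.68. Every ad libitum dog except dog 5 lay above all 4 control dogs, and dog 5 lay just below control dog 9. The means were 12.63 ± 0.65 in ad libitum dogs and 11.27 ± 0.45 in control dogs (SD, n = 5 and 4), a log2 difference of 1.37 (SE 0.400, 95% interval 0.55 to 2.18, adjusted p = 0.0391). At week 0 the PDHB means had been 11.99 ± 0.40 in ad libitum dogs and 12.03 ± 0.38 in control dogs, with a wide overlap. A second PDHB probe set stayed at background on all 45 arrays, with a highest value of 3.22.

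PDHA1 encodes the alpha subunit of the same component, which carries the sites that the regulatory kinases phosphorylate. Its brightest probe set read 13.18, 11.81, 12.40, 12.33 and 12.55 in ad libitum dogs 2, 5, 6, 7 and 8 at week 24. In control dogs 1, 3, 4 and 9 it read 11.72, 11.54, 11.63 and 11.74. All 5 ad libitum values were above the 4 control values, the only case among the 18 member probe sets at week 24. Over the array, 9.75% of tested probe sets showed such separated groups at week 24. The PDHA1 difference did not pass the test at this probe set (0.80, SE 0.401, adjusted p = 0.23) or at the others (1.13, adjusted p = 0.126, and 1.47, adjusted p = 0.0883). At the PDHA1 probe set with the difference of 1.47, ad libitum dog 5 read 7.94, inside the control range of 7.88 to 8.21, and the other 4 ad libitum dogs read 9.63 to 10.68.

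**Figure D1:**
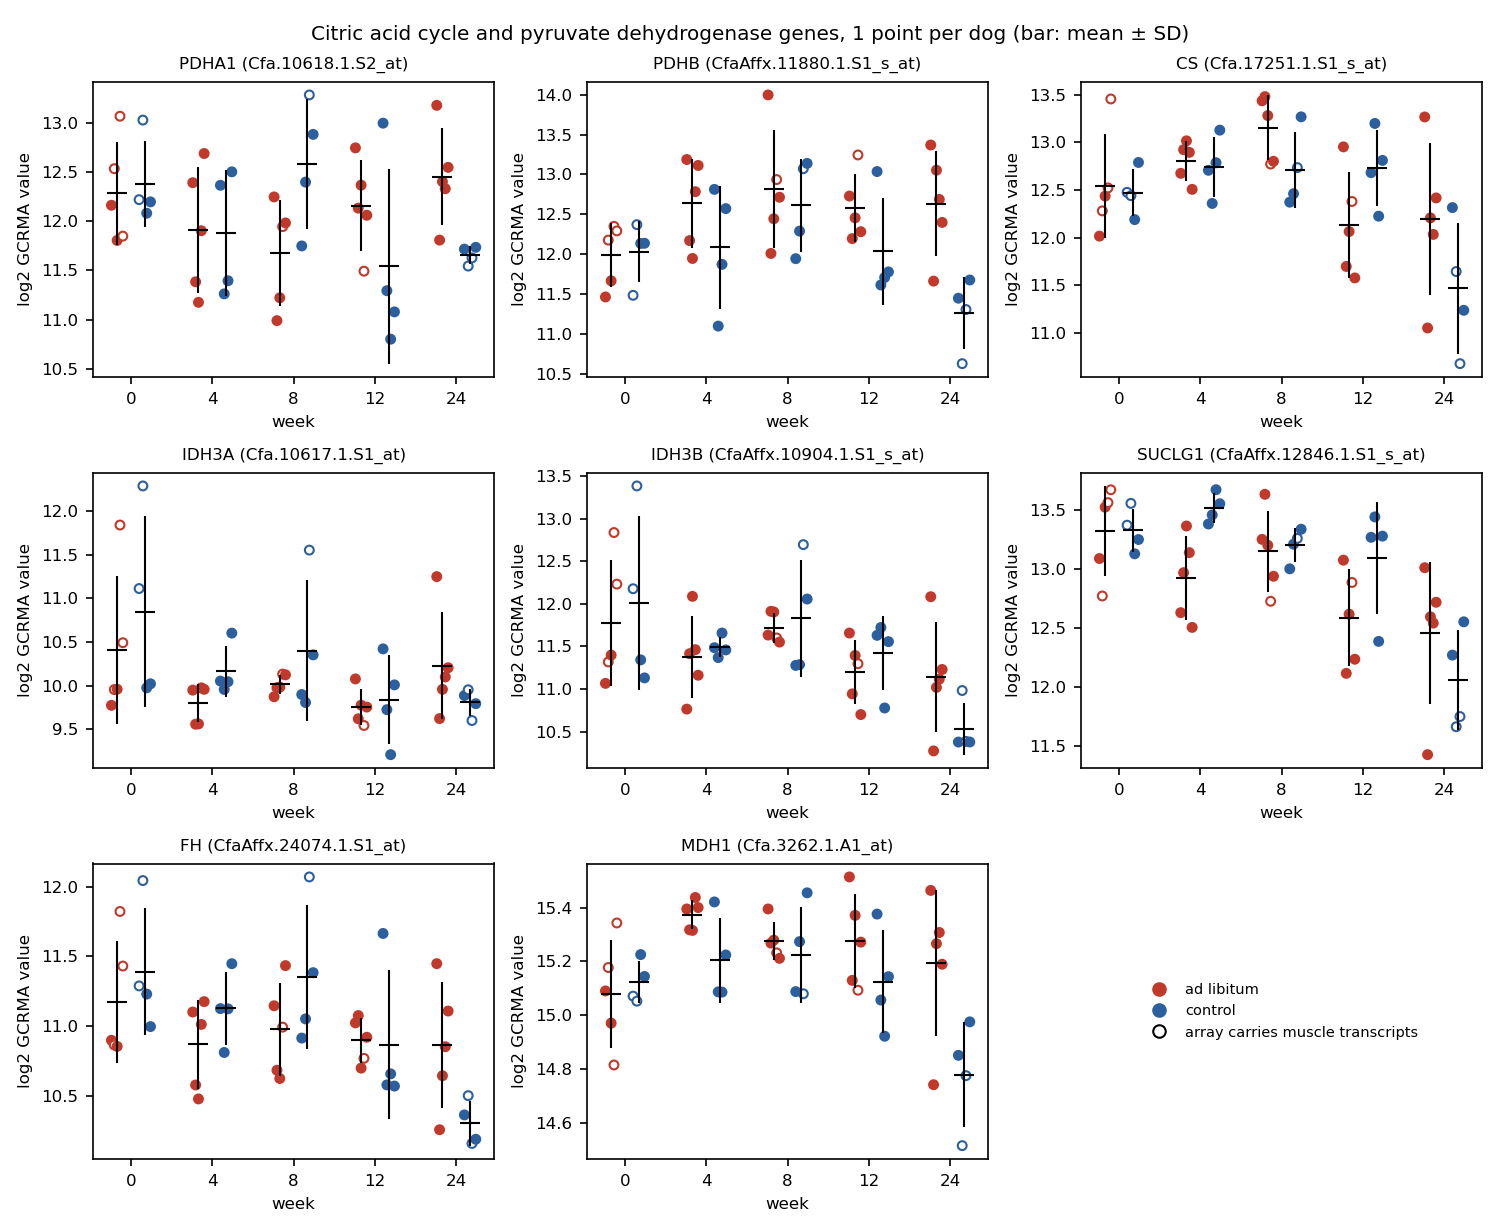
Log2 GCRMA values of the brightest probe set of each of the 8 members (vertical axes) by week (horizontal axes), with ad libitum dogs in red at the left and control dogs in blue at the right of each week. Points are dogs, open where the array carries muscle transcripts, and bars are mean ± SD. At week 24 the ad libitum mean is above the control mean in all 8 panels, with separated points for PDHA1.

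CS encodes citrate synthase, the entry step of the cycle. At week 24 CS averaged 12.20 ± 0.79 in ad libitum dogs and 11.47 ± 0.69 in control dogs. The dogs were spread widely in both groups, with 11.05 to 13.27 in ad libitum dogs and 10.68 to 12.32 in control dogs. The CS difference of 0.73 (SE 0.330) had an adjusted p of 0.183 and an interval of 0.06 to 1.40.

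IDH3A and IDH3B encode subunits of the NAD-dependent isocitrate dehydrogenase, an oxidative step of the cycle. None of their 6 probe sets passed at week 24, with differences of 0.42 to 0.99 for IDH3A and 0.08 to 0.61 for IDH3B. IDH3A averaged 10.23 ± 0.61 in ad libitum dogs and 9.81 ± 0.15 in control dogs at its brightest probe set. Ad libitum dog 2 was far above the rest there, at 11.25. IDH3B averaged 11.14 ± 0.64 in ad libitum dogs and 10.53 ± 0.30 in control dogs, and control dog 3, at 10.98, stood above the other 3 control dogs, at 10.38 to 10.39.

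SUCLG1, the alpha subunit of succinyl-CoA ligase, did not pass at week 24. Its brightest probe set averaged 12.46 ± 0.60 in ad libitum dogs and 12.06 ± 0.42 in control dogs (difference 0.40, interval -0.13 to 0.93, adjusted p = 0.374). Another SUCLG1 probe set was at background on all arrays, never above 2.86. FH encodes fumarase, which hydrates fumarate to malate. Of the 3 FH probe sets, the brightest and the dimmest had week-24 differences of 0.56 and 0.58 (adjusted p = 0.183 and 0.212) and the second brightest had -0.27 (adjusted p = 0.364).

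MDH1 encodes cytosolic malate dehydrogenase, part of the malate-aspartate shuttle that carries reducing equivalents between cytosol and mitochondria. At the dimmer of its 2 probe sets, ad libitum dogs 2, 5, 6, 7 and 8 read 15.00, 13.73, 14.60, 14.61 and 14.57 at week 24. Control dogs 1, 3, 4 and 9 read 13.71, 13.13, 13.64 and 13.97. Ad libitum dog 5 lay among the control dogs and the other 4 ad libitum dogs lay above them all. The difference was 0.89 (SE 0.206, 95% interval 0.47 to 1.31, adjusted p = 0.0102). At the brighter MDH1 probe set the means were 15.19 ± 0.27 in ad libitum dogs and 14.78 ± 0.19 in control dogs, a difference of 0.42 (SE 0.125, adjusted p = 0.0447). The probe sets of MDH2 or LOC482601, which may report the mitochondrial enzyme, had differences of 0.66 and 0.77 (adjusted p = 0.188 and 0.229).

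**Figure D2:**
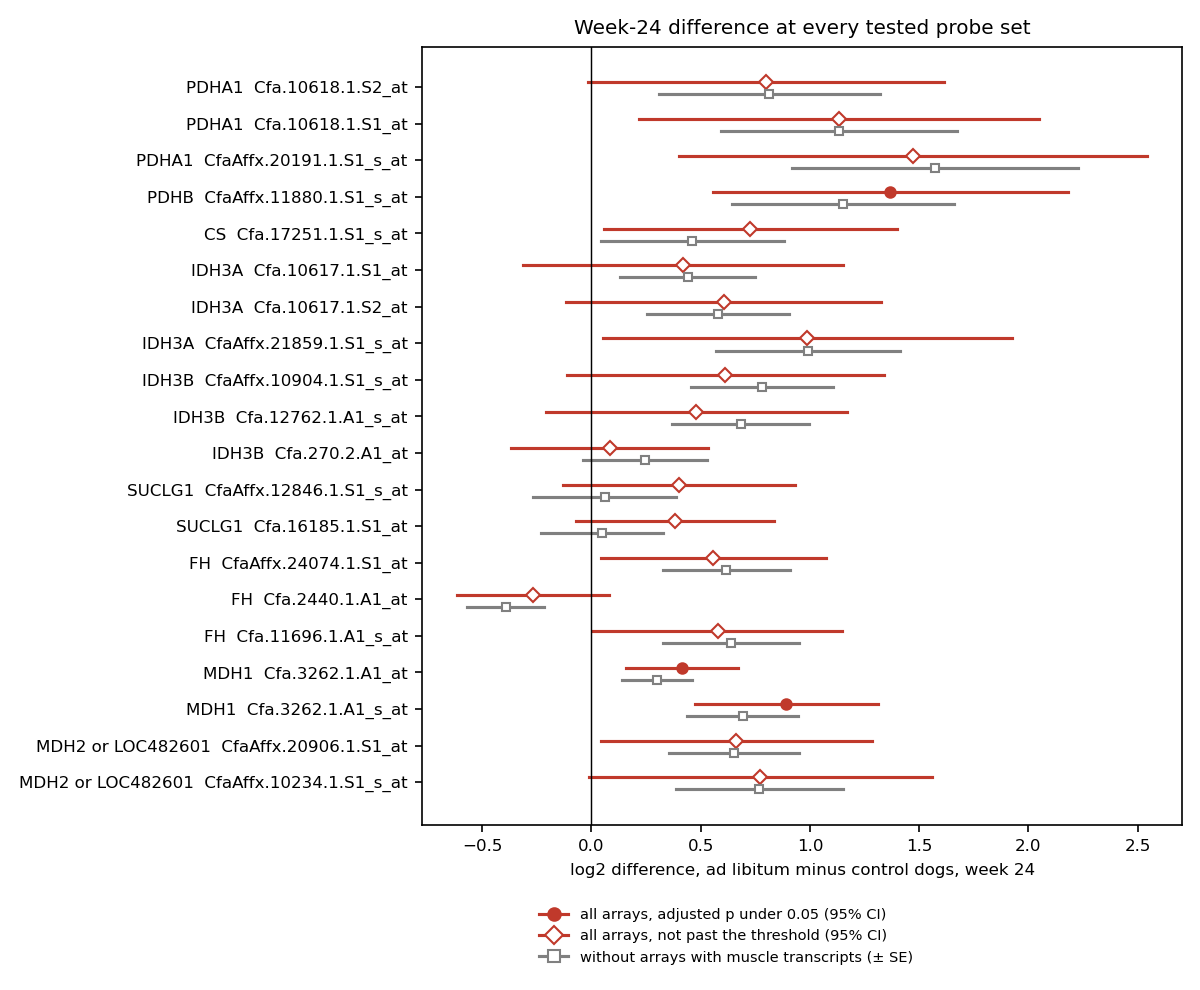
Log2 difference at week 24, ad libitum minus control (horizontal axis), for 20 probe sets: the 18 tested member probe sets and both of MDH2 or LOC482601 (vertical axis). Red points are all arrays with 95% intervals, filled where the adjusted p is under 0.05, and grey squares are the values without the arrays that carry muscle transcripts, with SE. PDHB and both MDH1 probe sets are the filled points, and a single FH probe set lies left of 0 at -0.27.

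The week-24 calls changed with single dogs. Ad libitum dog 2 had the highest of the 9 values at 17 of the 18 member probe sets, and ad libitum dog 5 had the lowest ad libitum value at 16 of 18. The mean over the 8 members was 12.88 in dog 2 and 11.36 in dog 5, against 11.29 to 11.65 in control dogs. Without dog 5 the count of called probe sets was 8, adding CS (1.01, adjusted p = 0.0346), both tested SUCLG1 probe sets and 2 of PDHA1, but 13.6% of all tested probe sets also passed without that dog. Without dog 2 or control dog 3 the count was 0, and without any of dogs 4, 6, 7, 8 or 9 it was 1, where 1.79% to 3.87% of all tested probe sets passed. The share over the array is not given here for the settings with a count of 0.

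The muscle list and other marker lists were also set side by side for the groups at week 24, without a test of the list means. The mean of the muscle list was 3.45 to 5.07 in ad libitum dogs and 3.30 to 10.69 in control dogs, the high values being dogs 3 and 4. Among the arrays of week 0, 17 of the 18 member probe sets had a higher mean on the 5 arrays with muscle transcripts than on the 4 without, by up to 1.36 (IDH3A). Without the 10 muscle arrays, no member probe set passed at week 24 (9 had an unadjusted p under 0.05), where 0.282% of all tested probe sets passed. The median member difference was then 0.63 and 17 of 18 stayed positive, with PDHB at 1.15 (adjusted p = 0.312) and MDH1 at 0.69 and 0.30 (adjusted p = 0.222 and 0.397). That comparison has only 2 control dogs at week 24. With the mean of the muscle list as a covariate instead, and all arrays kept, 4 member probe sets passed as higher in ad libitum dogs, the median was 0.76 and 17 of 18 were positive, where 5.28% of all tested probe sets passed. The 4 were PDHB (1.46, adjusted p = 0.0344), the dimmer MDH1 (0.91, adjusted p = 0.0135), and 1 each of PDHA1 (1.76, adjusted p = 0.0396) and IDH3A (1.35, adjusted p = 0.0466), while the brighter MDH1 did not pass (0.39, adjusted p = 0.0674).

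Fat cell markers (14 of 15 listed genes tested) averaged 12.11 to 14.15 in ad libitum dogs and 11.79 to 13.02 in control dogs at week 24, with ad libitum dog 5 lowest of its group, and 4 of the 14 passed the test as higher in ad libitum dogs. Fibroblast markers averaged 13.68 ± 0.44 in ad libitum dogs and 14.24 ± 0.38 in control dogs, macrophage markers 9.02 ± 0.88 in ad libitum dogs and 8.96 ± 0.66 in control dogs. Endothelial markers averaged 9.88 ± 0.06 in ad libitum dogs and 9.94 ± 0.48 in control dogs. The 3′ minus 5′ difference of the actin control probe sets, a measure of RNA or labelling quality, was 2.37 to 4.47 in ad libitum dogs and 3.18 to 5.86 in control dogs. With that measure as a covariate no member probe set passed at week 24 (3 had an unadjusted p under 0.05). The share of all tested probe sets passing in that setting is not given here. Of the 18 differences 16 stayed positive, with a median of 0.37 beside 0.02 over all tested probe sets. The mean of 9 genes of mitochondrial content was 11.91 ± 0.22 in ad libitum dogs and 11.59 ± 0.12 in control dogs at week 24. The part of the fat cell, fibroblast, macrophage, endothelial and mitochondrial content lists in the member differences was not tested.

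Changes from week 0 were then taken within each feeding group. Between week 0 and week 24, 9 of the 18 member probe sets fell in control dogs and all 18 changes were negative, with a median of -0.98 beside 0.03 over all tested probe sets. On the whole array, 7.92% of tested probe sets changed in control dogs over that interval and 4.71% fell. The actin measure in control dogs was 2.89 ± 1.16 at week 0 and 4.79 ± 1.20 at week 24. Their fat cell markers went from 13.14 ± 0.50 to 12.53 ± 0.57. Their mean of 9 genes of mitochondrial content went from 12.23 ± 0.25 to 11.59 ± 0.12. The part of the fat cell and mitochondrial content lists in the falls was not tested. SUCLG1 had the fall with the lowest adjusted p: it averaged 12.06 ± 0.42 at week 24 and 13.33 ± 0.18 at week 0 in control dogs (-1.22, SE 0.277, adjusted p = 0.0075). MDH1 fell by 0.94 at its dimmer probe set (SE 0.218, adjusted p = 0.00864), and its values there in the 4 control dogs at week 24 were all below their week-0 values. The brighter MDH1 probe set did not pass.

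The other falls in control dogs were spread over the cycle. FH fell by 1.07 and 1.05 at 2 probe sets (adjusted p = 0.013 and 0.0256), and IDH3B by 1.40 and 1.41 (adjusted p = 0.019 and 0.0139). IDH3A fell by 1.63 at 1 probe set (adjusted p = 0.0342), PDHA1 by 1.75 at 1 (adjusted p = 0.0469) and SUCLG1 by 0.87 at its other tested probe set (adjusted p = 0.02). Both probe sets of MDH2 or LOC482601 also fell, by 1.88 and 1.42 (adjusted p = 0.00562 and 0.0075). CS (-0.98, adjusted p = 0.0767) and PDHB (-0.79, adjusted p = 0.245) did not pass.

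The muscle arrays lay at both ends of this interval in control dogs, 2 at week 0 and 2 at week 24. Without them no member probe set passed (4 had an unadjusted p under 0.05), the median change was -0.64 and all 18 changes stayed negative, where 0.101% of all tested probe sets passed. Leaving out dog 3 gave 0 calls and leaving out dog 9 gave 2, where 1.69% of all tested probe sets passed. The actin measure as a covariate gave 0 (6 had an unadjusted p under 0.05). The share over the array is not given here for that covariate or without dog 3. With the mean of the muscle list as a covariate 8 member probe sets fell and the median change was -0.95, where 7.79% of all tested probe sets passed. In control dogs at weeks 4, 8 and 12, no member passed (unadjusted p under 0.05 in 2, 0 and 2), with 0.00441%, 0% and 0% of all tested probe sets passing. Without control dog 1, 1 of the 18 member probe sets passed at week 4 and 4 passed at week 12, where 11.2% and 18.2% of all tested probe sets passed.

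In ad libitum dogs 3 member probe sets fell between week 0 and week 24, and the median change was -0.17. On the whole array 4.78% changed and 2.4% fell. FH at its second brightest probe set averaged 9.55 ± 0.28 at week 24 and 10.33 ± 0.26 at week 0 in ad libitum dogs (-0.75, SE 0.165, adjusted p = 0.00776). IDH3B at its dimmest probe set fell by 0.92 (SE 0.212, adjusted p = 0.0113) and SUCLG1 by 0.89 (SE 0.251, adjusted p = 0.0352). PDHB had a change of 0.64 (adjusted p = 0.328). Without the muscle arrays none passed (3 had an unadjusted p under 0.05) and the median change was 0.12, where 0.405% of all tested probe sets passed. The count was 0 without dog 6, 1 without dog 5, 7 or 8 (where 1% to 2.96% of all tested probe sets passed), and 3 with the muscle list as a covariate. The share over the array is not given here without dog 6 or with that covariate.

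FH at the same probe set also fell at week 8 in ad libitum dogs, the 1 member probe set to fall then (-0.63, SE 0.171, adjusted p = 0.028), where 6.73% of tested probe sets changed and 3.83% fell. Its week-8 values were 9.49 to 9.89 in ad libitum dogs and 10.01 to 10.23 in control dogs. The direct difference of -0.45 did not pass (adjusted p = 0.115). The week-8 fall in ad libitum dogs was still called with the muscle list as a covariate, but not without the muscle arrays, without the week-8 arrays labelled dogs 5 and 9, with the actin covariate, or without any of dogs 2, 5, 6, 7 or 9. The share of all tested probe sets passing in these settings is not given here. At weeks 4 and 12 no member passed in ad libitum dogs (unadjusted p under 0.05 in 1 and 5), with 0.498% and 0.802% of tested probe sets passing.

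**Figure D3:**
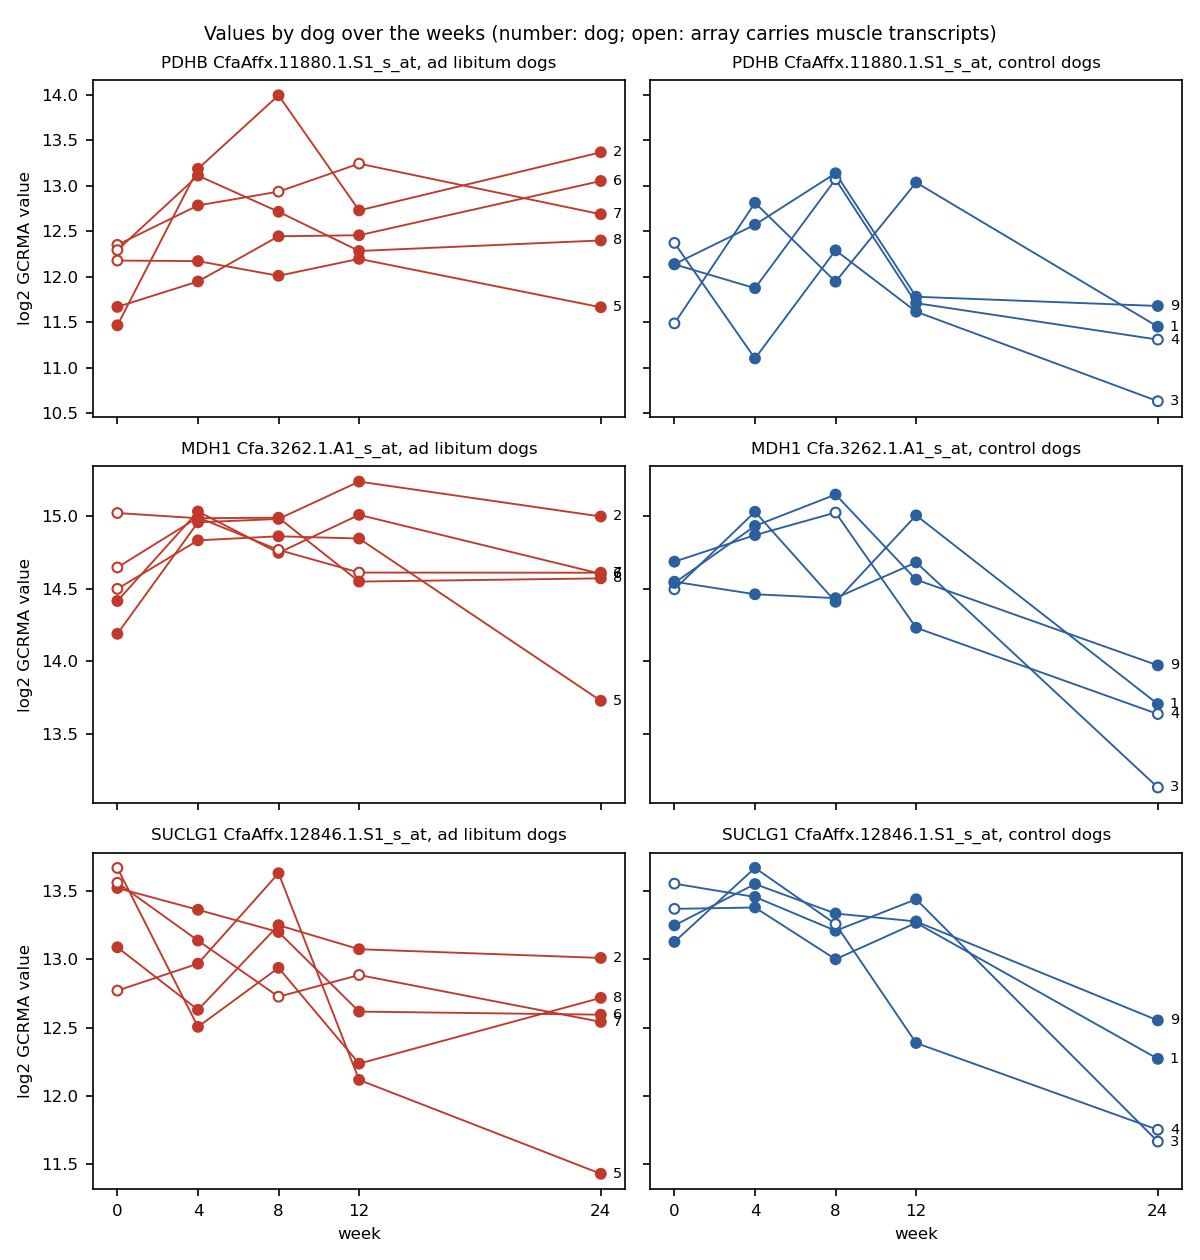
Log2 GCRMA values of PDHB, MDH1 (its dimmer probe set) and SUCLG1 (vertical axes) over weeks 0 to 24 (horizontal axes), 1 line a dog, ad libitum dogs at the left and control dogs at the right. Open points are arrays that carry muscle transcripts and numbers name the dogs. PDHB and MDH1 lie lower at week 24 than at week 0 in every control dog, and ad libitum dog 5 ends lowest of its group in all 3 genes.

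Whether the change since week 0 itself differed between ad libitum and control dogs was tested as an interaction, called the feeding effect, and no member passed it at any week. At week 24 the effect had a median of 0.80 over the 18 member probe sets, 16 of them positive, and 8 had an unadjusted p under 0.05. Over the array only 0.022% of tested probe sets passed. PDHB had an effect of 1.43 (SE 0.572, adjusted p = 0.386) and MDH1 had 0.84 and 0.44 (adjusted p = 0.331 and 0.398). At weeks 4, 8 and 12, and for the mean of weeks 4 to 24, 0% of all tested probe sets passed, and 1, 0, 1 and 1 member probe sets had an unadjusted p under 0.05. The joint test of all 4 weeks called none of the members (2 had an unadjusted p under 0.05), and 0.0132% of all tested probe sets. Without control dog 1 it called 1 member probe set, and 11% of all tested probe sets.

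Before week 24 no direct comparison called a member. The numbers with an unadjusted p under 0.05 were 1 at week 0, 0 at week 4, 2 at week 8, 2 at week 12 and 3 for the mean of weeks 4 to 12. Of all tested probe sets, 0% passed at week 0, 0.0132% at week 4, 1.42% at week 8, 0.00441% at week 12 and 1.34% for that mean. The median member difference was -0.13 at week 0, -0.01 at week 4, -0.08 at week 8 and -0.30 at week 12, and 0.59 at week 24. For the mean of weeks 4 to 12 it was -0.14, with 15 of 18 differences negative.

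Single members differed in direction before week 24. PDHA1 averaged 11.68 ± 0.54 in ad libitum dogs and 12.58 ± 0.66 in control dogs at week 8 (difference -0.91, SE 0.403, adjusted p = 0.159). Within the 4 batches that held both groups at week 8 its difference was -1.30, -0.13, -0.45 and -1.66. The difference of -0.13 includes the array labelled dog 5 and that of -1.66 rests on the array labelled dog 9, both of which matched another dog. Without those 2 arrays the PDHA1 difference at week 8 was -0.54 (adjusted p = 0.627). CS averaged 13.15 ± 0.34 in ad libitum dogs and 12.71 ± 0.40 in control dogs at week 8. At week 12 CS averaged 12.13 ± 0.56 in ad libitum dogs and 12.73 ± 0.40 in control dogs. At week 4 the groups did not overlap at 4 of the 18 member probe sets, all lower in ad libitum dogs, where 4.74% of all tested probe sets did not overlap. These were 1 of FH, 1 of IDH3A and both tested ones of SUCLG1, with fitted differences of -0.40, -0.15, -0.50 and -0.36, and none passed the test. Week-4 arrays of the feeding groups shared no batch, so there the feeding group and the batch cannot be told apart without the batch effects estimated at other weeks.

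Genes that feed and regulate pyruvate dehydrogenase were examined beside the members: 8 tested genes, of which 3 were higher in ad libitum dogs at week 24 and 7 had positive differences, with a median of 0.95. Over the array 3.76% of tested probe sets passed as higher in ad libitum dogs at that week. MPC1 and MPC2 together form the mitochondrial pyruvate carrier, which brings pyruvate to the complex. MPC2 averaged 13.81 ± 0.53 in ad libitum dogs and 12.63 ± 0.26 in control dogs (1.18, SE 0.239, adjusted p = 0.00481). MPC1 averaged 13.55 ± 0.63 in ad libitum dogs and 12.42 ± 0.46 in control dogs (1.13, SE 0.281, adjusted p = 0.0161). PDK3, a kinase that inactivates the complex, passed at its brightest probe set (0.86, SE 0.218, adjusted p = 0.0179). There it read 8.55 to 9.01 in ad libitum dogs and 7.49 to 8.13 in control dogs, without overlap. Over the array, 9.75% of tested probe sets showed such separated groups at week 24. At the dimmer PDK3 probe set the groups overlapped, with 6.06 to 7.13 in ad libitum dogs and 5.97 to 6.38 in control dogs. PDK1, another such kinase, did not pass at its brightest probe set (0.96, SE 0.386, adjusted p = 0.129). There it read 12.32 to 13.25 in ad libitum dogs and 11.67 to 12.31 in control dogs, without overlap. Its dimmer probe set read 8.03 to 9.74 in ad libitum dogs and 7.26 to 7.99 in control dogs, also without overlap. Ad libitum dog 5 was the lowest of its group for MPC1 and MPC2, as it was for PDHB and MDH1, but not for PDK3.

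PDK4, the pyruvate dehydrogenase kinase that rises with fasting, differed at another time. At week 8 it read 12.01 to 13.62 in ad libitum dogs and 13.73 to 14.43 in control dogs. The means were 12.71 ± 0.59 in ad libitum dogs and 14.09 ± 0.31 in control dogs, a difference of -1.44 (SE 0.329, adjusted p = 0.0432). Over weeks 4 to 12 the mean PDK4 difference at its brightest probe set was -0.96 (SE 0.198, adjusted p = 0.00683). At week 24 PDK4 averaged 14.07 ± 0.10 in ad libitum dogs and 14.10 ± 0.21 in control dogs (difference -0.03, adjusted p = 0.97), at its brightest probe set.

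Within ad libitum dogs PDK4 fell from week 0 by 1.70, 1.29 and 1.40 at weeks 4, 8 and 12 (adjusted p = 0.00918, 0.021 and 0.0256). In control dogs its changes of -1.09, -0.17 and -1.19 did not pass (adjusted p = 0.113, 1 and 0.234), and the feeding effect of -1.13 at week 8 did not pass either (adjusted p = 0.571). The PDK4 difference at week 8 was -1.60 without the muscle arrays (adjusted p = 0.0117), and -1.24 without the week-8 arrays labelled dogs 5 and 9 (adjusted p = 0.136). With the actin covariate it was -1.34 (adjusted p = 0.164), while the mean of weeks 4 to 12 passed in all 3 of these settings (adjusted p = 0.0121, 0.0142 and 0.00971). With the muscle covariate PDK4 passed at week 8 (-1.42, adjusted p = 0.0499) and for that mean (adjusted p = 0.00694). The dimmer PDK4 probe set averaged 8.86 ± 0.84 in ad libitum dogs and 10.46 ± 1.15 in control dogs at week 8 (-1.70, adjusted p = 0.157). At week 4 it averaged 7.50 ± 1.69 in ad libitum dogs and 8.77 ± 0.84 in control dogs. At week 12 the means of this probe set were close, at 8.22 ± 0.78 in ad libitum dogs and 8.51 ± 1.98 in control dogs. At week 24 it averaged 10.58 ± 0.50 in ad libitum dogs and 9.72 ± 0.76 in control dogs (0.86, SE 0.744, adjusted p = 0.521), and neither PDK4 probe set passed at that week.

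The other enzymes and subunits of the complex and the cycle, 12 tested genes, had no gene past the threshold at week 24 at its brightest probe set (5 had an unadjusted p under 0.05). All 12 differences were positive, with a median of 0.53. DLAT, the acetyltransferase core of pyruvate dehydrogenase, had 1.51 (SE 0.599, adjusted p = 0.124) at its brightest probe set and 1.29 (SE 0.288, adjusted p = 0.0083) at the other. OGDH, the oxoglutarate dehydrogenase subunit, had 0.30 (adjusted p = 0.469). In control dogs 6 of the 12 fell between week 0 and week 24, among them the succinate dehydrogenase subunit SDHC, by 1.34 (adjusted p = 0.00154). Over the array 4.71% of tested probe sets fell in control dogs over that interval, which is also a change of batch. Without the muscle arrays 0.101% of all tested probe sets passed for that change.

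Genes by which carbon leaves or enters the cycle numbered 15 tested, of which 2 were higher in ad libitum dogs at week 24 and 13 had positive differences, with a median of 0.63. The share passing as higher over the array was 3.76%. IDH1, the cytosolic NADP-dependent isocitrate dehydrogenase, averaged 11.53 ± 0.94 in ad libitum dogs and 10.25 ± 0.72 in control dogs (1.28, SE 0.373, adjusted p = 0.0385). SLC25A1, the mitochondrial citrate exporter, averaged 11.45 ± 0.65 in ad libitum dogs and 10.39 ± 0.40 in control dogs (1.06, SE 0.314, adjusted p = 0.0409). PC, pyruvate carboxylase, had 1.13 (adjusted p = 0.185). ACLY, which splits cytosolic citrate to acetyl-CoA, had 0.80 (adjusted p = 0.23) at its brightest probe set. The dimmer ACLY probe sets lay further apart at week 24. They averaged 11.14 ± 1.18 and 8.55 ± 1.61 in ad libitum dogs, and 9.90 ± 0.54 and 5.96 ± 1.08 in control dogs.

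Without the muscle arrays none of the 5 called genes of these lists passed at week 24, and their differences stayed positive: MPC2 had 1.00 (adjusted p = 0.161), MPC1 0.83 (0.291), PDK3 0.98 (0.0959), IDH1 0.85 (0.449) and SLC25A1 0.85 (0.267). With the actin covariate the adjusted p-values of the same genes ran from 0.121 for MPC2 to 0.487 for IDH1, with differences of 0.66 to 1.06. With the muscle covariate MPC2, MPC1 and PDK3 passed (adjusted p = 0.00521, 0.0189 and 0.0202), and SLC25A1 and IDH1 did not (adjusted p = 0.0606 and 0.0612).

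**Figure D4:**
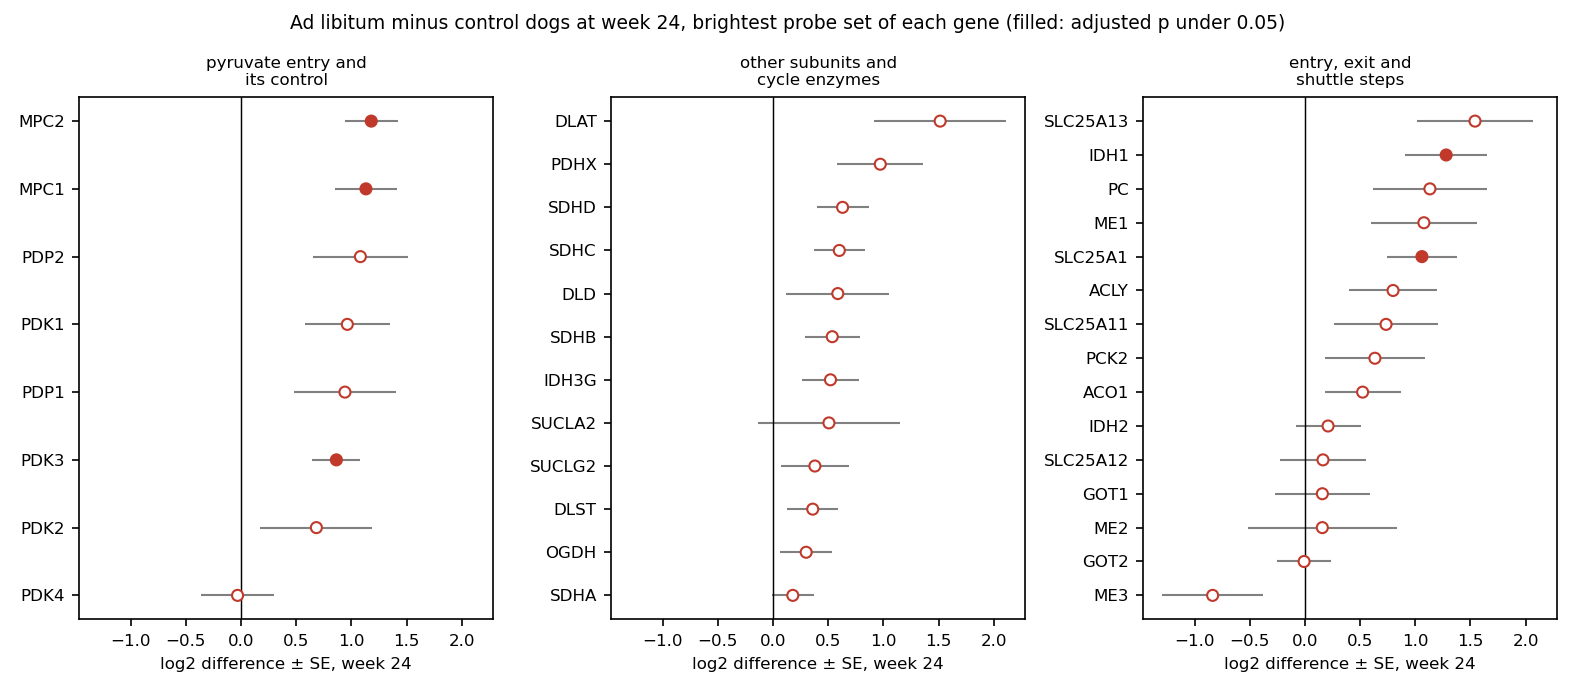
Log2 difference at week 24, ad libitum minus control, with SE (horizontal axes), for genes that feed or regulate pyruvate dehydrogenase, other enzymes of the cycle and genes of entry and exit (panels), each at its brightest probe set. Filled points have an adjusted p under 0.05: MPC1, MPC2, PDK3, IDH1 and SLC25A1. All 12 genes of the middle panel lie right of 0.

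The members varied together only in part. Over the 28 pairs of members at their brightest probe sets, the median Pearson r was 0.45 over all 45 arrays (0.00 to 0.79) and 0.47 over the 35 arrays without muscle transcripts (-0.11 to 0.83). The 15 pairs of probe sets of the same gene had a median r of 0.90 over 45 arrays and 0.83 over 35. The arrays share dogs and batches, so these values describe the arrays and carry no test.

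Members also differed in which marker list they followed over those 35 arrays. With the mean of the fat cell markers, r was highest for CS (0.74) and IDH3B (0.70) and lowest for PDHA1 (0.32). With the mean of 9 genes of mitochondrial content, FH (0.78) and PDHA1 (0.73) came highest. With the actin measure of RNA or labelling quality, r ran from -0.65 for CS to 0.06 for PDHA1. Macrophage markers gave -0.68 for CS to -0.34 for PDHA1, and fibroblast markers -0.67 for IDH3A to -0.24 for PDHA1. Over all 45 arrays IDH3A had r = 0.65 with the muscle list and MDH1 had -0.39. The genes most like the mean of the members, out of 6749 candidates, were WDR41 and NDUFA5 (r = 0.94 each), PRXL2A (0.89), ACAT1 (0.88), RMDN1 (0.87) and NDUFB6 (0.87).

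NDUFA5 and NDUFB6 are subunits of respiratory complex I, and ACAT1 is the mitochondrial acetoacetyl-CoA thiolase. For single members the most alike genes were HADH for CS (r = 0.90), NDUFA10 for IDH3B (0.91), BOLA3 for SUCLG1 (0.94), MARCHF5 for PDHA1 (0.88) and CA13 for PDHB (0.88). EEF1E1 was most like FH (0.88), PRXL2A most like MDH1 (0.88) and HSPE1 most like IDH3A (0.81). Over all 45 arrays HADH kept r = 0.92 with CS, while HSPE1 had 0.12 with IDH3A.

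**Figure D5:**
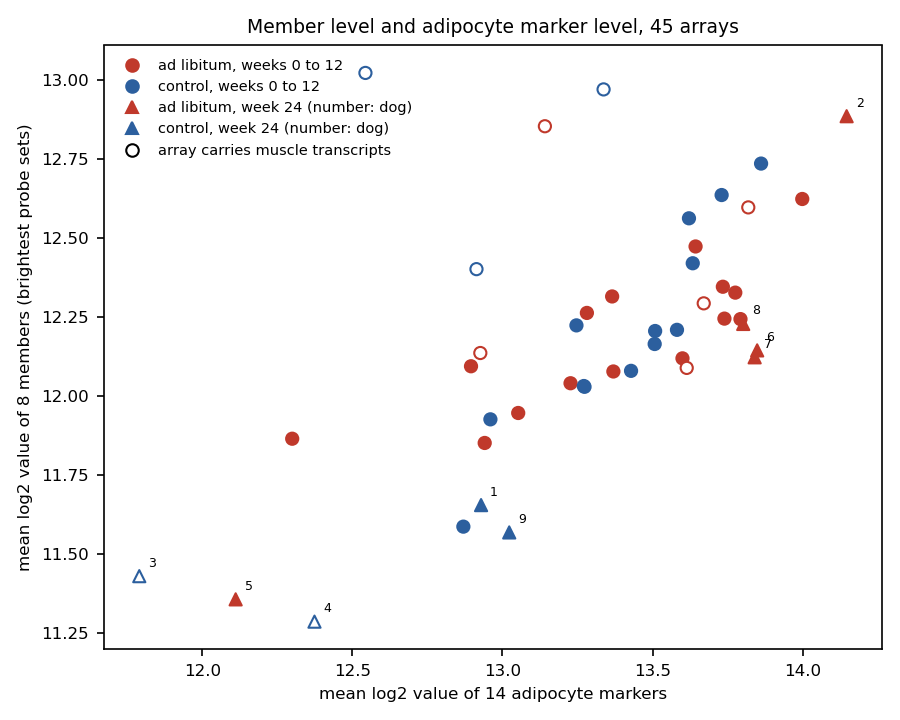
Mean log2 value of the 8 members (vertical axis) against the mean of 14 fat cell markers (horizontal axis) on 45 arrays. Ad libitum arrays are red and control arrays blue, week-24 arrays are triangles numbered by dog, and open symbols carry muscle transcripts. At week 24 ad libitum dog 2 is highest on the vertical axis at 12.88 and ad libitum dog 5, at 11.36, lies among the control dogs.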

How the data were processed

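Total RNA was extracted with Trizol and labelled with biotin by the 1-cycle 3′ method, per the labels' protocols. The values deposited by the authors are log2 expression values, 1 per probe set, made with GCRMA per the submitters' processing notes. The sources used here give no log base, version, filter or batch correction, and log2 was read from the range of 0.42 to 17.51 (array medians 3.60 to 3.83).

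Of 42924 probe sets that were not controls, 22690 (52.9%) had a log2 value above 4 on at least 4 arrays. They were fitted with limma 3.58.1 and statmod 1.5.0 in R 4.3.3: 10 means of feeding group and week, batches 1 to 5 coded to sum to 0, and the dog as a random block (correlation 0.00562), leaving 31 degrees of freedom for error. The adjusted p-values are limma's after Benjamini-Hochberg over all 22690, with a threshold of 0.05. The script was tested on simulated data. Precision is limited by the number of arrays, since arrays hold no count of molecules.

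The brightest probe set of a gene has the highest mean over 45 arrays. Members were named at every probe set. Other pathway genes were named where their brightest probe set passed a direct comparison or feeding effect, plus PDK4, PC, ACLY and OGDH; genes of like pattern were the 6 with the highest Pearson r with the mean of the members and the 1 highest for each. DLAT's second probe set, SDHC, PDK1 and the dimmer probe sets of PDK4, PDK3 and ACLY were added after their values were seen. Members and lists were chosen with earlier results of these data known. An array was taken to carry muscle transcripts where its muscle list mean was above 7. The same animal id links a dog's arrays: residuals of the same dog at different weeks had a median correlation of 0.099 (90 pairs), and of different dogs -0.013 (720 pairs). Alternatives were no filter, a stricter filter, no batch term, no or a fixed dog block, quantile normalization, muscle and actin covariates, and leaving out muscle arrays, the week-8 arrays labelled dogs 5 and 9, or each dog.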

Additional observations from a re-analysis of the deposited data

Results flagged for a closer look

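In 200 groups of 4 or 5 arrays (20 tested probe sets, those of MDH2 or LOC482601 included, by feeding group and week), 11 values lay apart from the rest of their group by Dixon's criterion, which chance alone meets in about 1 in 20 groups. At week 12, control dog 1 read 13.04 for PDHB against 11.62 to 11.78 in the other control dogs. The same array read 11.66 for FH at its brightest probe set, against 10.57 to 10.66, and 10.19 at FH's dimmest probe set, against 9.18 to 9.30. Control dog 4 was low for SUCLG1 at week 12, at 12.39 against 13.27 to 13.44, and for the dimmer probe set of MDH2 or LOC482601, at 10.85 against 11.59 to 11.73. At week 24 control dog 4 read 9.11 at the second brightest IDH3A probe set, against 9.38 to 9.42. At week 24 control dog 3, whose array carries muscle transcripts, read 10.98 for IDH3B against 10.38 to 10.39. Control dog 3 also read 13.03 for PDHA1 at week 0, against 12.08 to 12.22. At week 4 control dog 9 read 10.6 for IDH3A against 9.95 to 10.05 in the other control dogs. The dimmest IDH3B probe set was low in control dog 1 at week 4, at 9.63 against 10.21 to 10.26, and high in ad libitum dog 2 at week 24, at 9.92 against 9.02 to 9.25.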

How the results depend on the processing

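Counts are of member probe sets past the threshold. The share of all tested probe sets past it also moved between settings. For the direct comparison at week 24 it was 5.46% with all dogs and 13.6% without dog 5. A changed count alone therefore does not set the members apart from the array. At week 24 the direct comparison (3) gave 0 without the muscle arrays, 0 with the actin covariate, and 0 to 8 with 1 dog left out. The fall at week 24 in control dogs (9) gave 0 without the muscle arrays, 0 with the actin covariate, and 0 to 9 with 1 dog left out. The fall at week 24 in ad libitum dogs (3) gave 0 without the muscle arrays and 0 to 4 with 1 dog left out. The fall at week 8 in ad libitum dogs (1) gave 0 without the muscle arrays, 0 without the week-8 arrays labelled dogs 5 and 9, 0 with the actin covariate, and 0 to 1 with 1 dog left out. Leaving out 1 dog gave 0 to 1 for control dogs at week 4, 0 to 4 for control dogs at week 12 and 0 to 1 for the joint test, each 0 with all dogs. The remaining counts were 0 in all their alternatives, and no difference changed sign among PDHB and MDH1. With no replicate block the counts were 3, 9, 3 and 1, and with the dog as a fixed replicate block the 3 changes gave 10, 3 and 1, so the block ended no call. PDHB passed in 8 of 18 alternatives (1.15 to 1.61, adjusted p = 0.00862 to 0.312), among them not with no filter (adjusted p = 0.0741). MDH1 passed in 14 of 18 at its dimmer probe set (0.69 to 1.08, adjusted p = 0.00131 to 0.222) and in 5 of 18 at its brighter one (0.30 to 0.53, adjusted p = 0.00669 to 0.397). Fewer arrays remain in each leave-out setting; otherwise the cause of a lost call was not tested. No value of the 18 tested member probe sets was below 7.29 on any array, where the filter was at 4.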
